A study of Mus musculus with 12 samples.

Results

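The genes described here encode 10 enzymes of sulfur amino acid and serine metabolism: Cbs, Cth, Mat2a, Ahcy and Gclc around the transsulfuration route, and Phgdh, Psat1, Shmt1, Shmt2 and Mthfd2 of serine synthesis and folate one-carbon metabolism. They were followed in mouse inguinal white adipose tissue (iWAT), which lies under the skin, in 12 single-colour arrays. A gene was read from the transcript cluster that carried its symbol alone and had the highest mean over the 12 arrays. In this way 9 of the 10 enzymes were measured, out of 22180 genes in all, with a doubt about the identity of the Ahcy cluster given below. Mat2a had no cluster with a single symbol and was not analysed here. The group was selected on the genotype differences of Cbs, whose signal was lower in the knockout at both temperatures, so these values of Cbs are a description with no test.

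Methionine is activated to S-adenosylmethionine, the methyl donor of the cell, and becomes homocysteine once the methyl group has been passed on. Homocysteine is either methylated again with a folate-bound carbon unit or joined to serine by CBS, the entry into transsulfuration. CTH then releases cysteine, which feeds glutathione, taurine and hydrogen sulfide. Serine serves both as the partner of homocysteine and as the main donor of one-carbon units through the SHMT enzymes. Adipose tissue is known to make hydrogen sulfide, and cysteine availability is known to bear on fat mass in mice.

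There were 4 groups of 3 arrays. Control mice carried Baf60a flox alleles without Cre (flox), and knockout mice carried the same alleles with a Cre driven by the Adiponectin promoter (AKO). BAF60a, encoded by Smarcd1, is a subunit of SWI/SNF chromatin remodelling complexes, and all mice, controls included, were fed standard chow and carried the floxed gene. Mice stayed at room temperature (RT, 22 °C) or were adapted stepwise to 10 °C and held there for 7 days (cold). Their age was 9 months per the labels, whereas a younger range is stated for cold-acclimated mice in the methods. Each array carried the RNA of 1 or 2 mice, and neither sex nor batch was in the labels. Adiponectin-Cre acts in adipocytes, so that other cells of the depot kept BAF60a. In whole tissue, fewer cells of a type and less RNA per cell cannot be told apart.

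Values are log2 signals from robust multi-array averaging (RMA). Signals of different genes depend on their probes and are not compared with each other. Array medians lay between 3.57 and 3.71, and the median of all values was 3.64. Smarcd1 itself had means of 6.58 in flox and 6.15 in AKO at RT, and 6.55 and 6.30 in cold, and neither difference passed the test (adjusted p = 0.782 and 0.915). The position of its probes relative to the deleted part is not given in the sources used here. The 9 measured adipocyte markers had a mean signal of 10.3 to 10.8 in every array. Skeletal muscle markers varied most, with a mean of 2.94 in AKO Cold 1, 8.34 in AKO RT 2 and 8.88 in AKO Cold 3, and interferon response genes were highest in flox RT 1 and flox RT 2 (7.21 and 7.48, against 5.57 to 6.52 elsewhere). Signed differences are AKO relative to flox, or cold relative to RT, and a gene is called at an adjusted p below 0.05 in limma (Benjamini-Hochberg over 22180 genes). Spread between arrays is what the p-values rest on, and the number of arrays limits the precision. Fits without the muscle-rich arrays AKO RT 2 and AKO Cold 3 take an array from each AKO group. Fits without the interferon-rich arrays flox RT 1 and flox RT 2 leave only flox RT 3 in its group. Both have fewer arrays to call a gene with.

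The promoters of Cbs and Psat1 are shown because these 2 genes, of the 9 measured, had every AKO array below every flox array at both temperatures. Of all genes 0.537% did so, and Cbs was chosen on its genotype differences. Sequences are those of RefSeq (build GRCm38.p6), whose promoter table held entries for 8 of the 10 enzymes, from 250 bases before to 50 bases after the annotated start. Capitals mark CCAAT boxes (CCAAT) and GC boxes (GGGCGG), searched on both strands. The Cbs promoter is chr17:31637156-31637455 and that of the upstream Psat1 start is chr19:15925010-15925309, both on the minus strand.
Cbs: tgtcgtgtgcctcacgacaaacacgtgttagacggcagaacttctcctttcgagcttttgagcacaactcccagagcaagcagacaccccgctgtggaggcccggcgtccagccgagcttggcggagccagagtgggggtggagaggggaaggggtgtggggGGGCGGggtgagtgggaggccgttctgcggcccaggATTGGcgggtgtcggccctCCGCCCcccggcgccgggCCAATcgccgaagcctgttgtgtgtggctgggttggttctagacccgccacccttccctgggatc
Psat1: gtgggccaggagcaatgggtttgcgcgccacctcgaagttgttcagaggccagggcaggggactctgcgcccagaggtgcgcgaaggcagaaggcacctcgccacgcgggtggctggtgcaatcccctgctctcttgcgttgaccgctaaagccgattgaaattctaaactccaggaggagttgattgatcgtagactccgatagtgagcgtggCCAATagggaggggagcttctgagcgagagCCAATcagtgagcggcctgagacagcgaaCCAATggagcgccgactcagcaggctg
Counted from the start, the Cbs promoter held CCAAT boxes with first bases at -52 and -15 and GC boxes at -88 and -33, and a CACGTG E-box at -229 that is not capitalised. The Psat1 promoter held 3 CCAAT boxes at -36, -6 and 24 and 0 GC boxes, and a second Psat1 start annotated downstream had 0 CCAAT boxes and 2 GC boxes. Among 32851 promoters of the same length, 37.4% held a CCAAT box, 35.7% a GC box and 7.15% the E-box, so that the first 2 are common letters. The amino acid response element (TGATGNAAN) and the antioxidant response element (TGACNNNGC), found in 3.95% and 12.4% of promoters, had no match in either promoter. Of the other enzymes with an entry, Mthfd2 had 3 CCAAT boxes, Phgdh 2, Shmt1, Ahcy and Mat2a 1 each and Shmt2 0. Matches are descriptions of the letters and not of binding.

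Cbs encodes cystathionine beta-synthase, which condenses homocysteine with serine. Its signal was 5.05, 4.64 and 4.85 in flox at RT and 3.92, 3.72 and 3.94 in AKO at RT. In cold it was 5.04, 5.52 and 5.64 in flox and 4.23, 4.34 and 4.30 in AKO. The AKO arrays were the low ones at both temperatures, and no AKO array reached the lowest flox array of its temperature. Relative to flox, AKO stood at 50.6% at RT (-0.98 on the log2 scale, SE 0.16) and at 46.4% in cold (-1.11, SE 0.16). These values chose the gene and carry no test. The cold effect in AKO minus that in flox was -0.13 (SE 0.22), also given without a test. Over all alternative settings the RT difference ranged from -1.09 to -0.88 and the cold difference from -1.29 to -0.99. The RT signals of AKO lay just above the median of all values, and RMA gives no detection calls at any level.

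Taken by group, Cbs was highest in flox in cold (5.40 ± 0.31, SD, n = 3), then in flox at RT (4.85 ± 0.21), AKO in cold (4.29 ± 0.06) and AKO at RT (3.86 ± 0.12). The first pair overlapped by the array flox Cold 1, which at 5.04 lay just below flox RT 1. All 3 AKO arrays in cold lay above the 3 AKO arrays at RT, and the lowest flox array at RT lay above the highest AKO array in cold. Cold against RT was not used to choose the gene and was tested. The rise was 1.46-fold in flox (0.55, SE 0.16, adjusted p = 0.276) and 1.34-fold in AKO (0.43, SE 0.16, adjusted p = 0.373), and neither passed. Averaged over the genotypes it was 1.40-fold (0.49, SE 0.11, 95% interval 0.25 to 0.73) with an adjusted p = 0.0493, just inside the threshold. Cbs was the only 1 of 9 enzymes called there, where 1.83% of all genes were called and 13.2% had an unadjusted p below 0.05. That call did not survive leaving out any 1 array other than flox Cold 1 (adjusted p up to 0.120). It was also lost without the 2 muscle-rich arrays (0.200), a fit with fewer arrays in each AKO group. Without the 2 interferon-rich arrays the difference was 0.49. Only flox RT 3 was left in its group there, so that fit is no check of the call. Over all settings the difference itself stayed between 0.43 and 0.58.

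**Figure D1:**
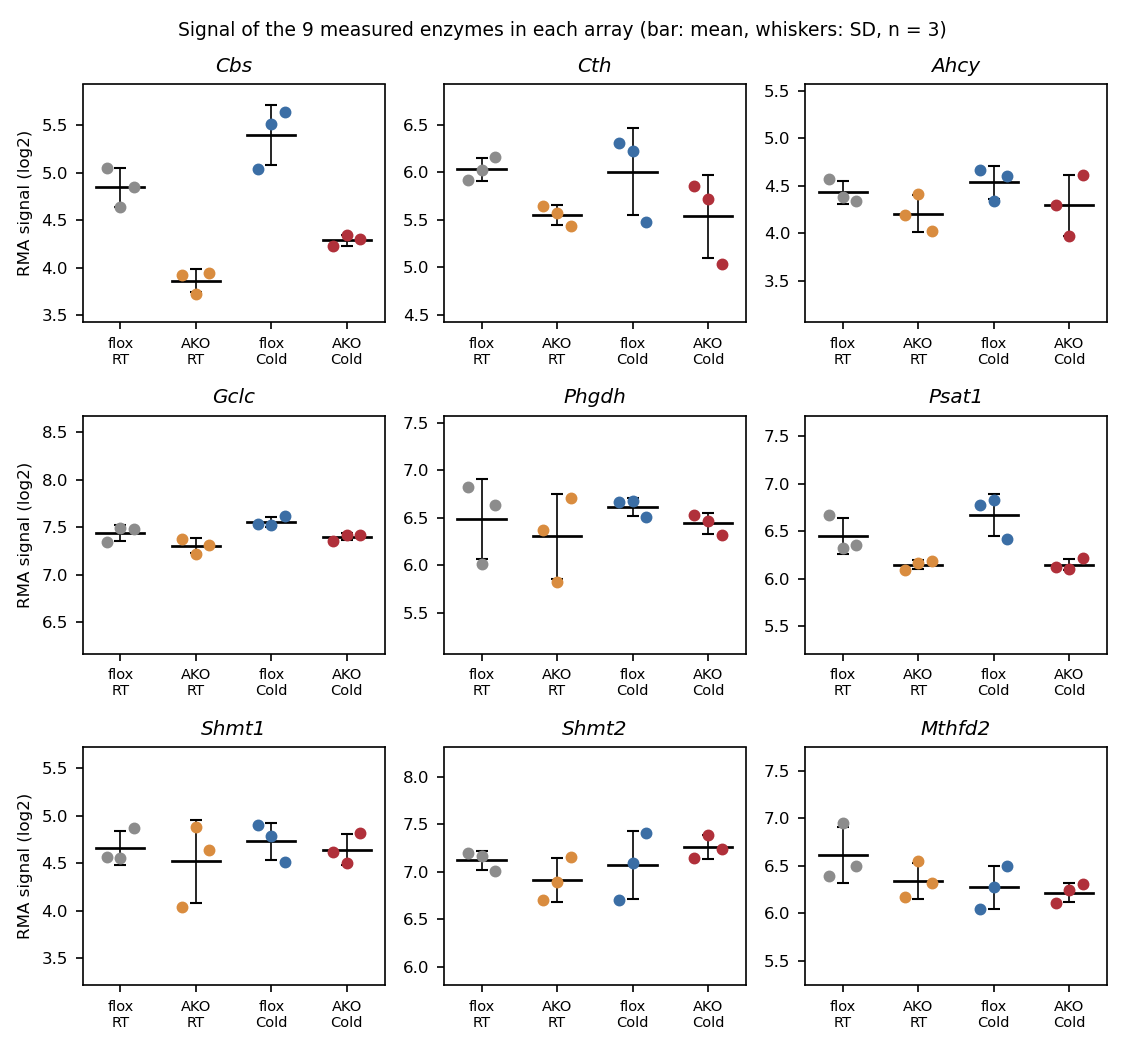
RMA log2 signal (vertical axis, the same span in each panel) of the 9 measured enzymes in the 4 groups of 3 arrays, with 1 point per array, the group mean as a bar and the SD as whiskers. Cbs shows AKO arrays below flox arrays at both temperatures and higher means in cold, and Psat1 shows narrow AKO groups below wider flox groups.

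Several cell type marker lists differed between the groups in which Cbs differed. The 6 brown and beige adipocyte markers had a mean signal of 4.02 to 4.20 in flox at RT, 4.48 to 4.61 in AKO at RT, 5.13 to 6.01 in flox in cold and 8.01 to 8.43 in AKO in cold. Pearson's r of their mean with Cbs was -0.14 over the 12 arrays. The markers were not alike at RT. Cidea read 6.36, 6.30 and 7.05 in flox and 7.91, 8.23 and 8.16 in AKO, whereas the Ucp1 arrays overlapped. Dio2 was the 1 marker with a lower mean in AKO there, and 5 had a higher one. Ucp1, Dio2 and Elovl3 lay below the median of all values in every RT array, so that their RT directions are uncertain. The 5 proliferation markers lay at 4.80 to 5.29 in flox and 4.48 to 4.70 in AKO at RT and overlapped in cold (4.64 to 5.19 and 4.95 to 5.11), with an r of 0.47. Of the other lists, progenitor markers (4 genes) had an r of -0.57 with Cbs, macrophage markers (5 genes) -0.48 and adipocyte markers (9 genes) 0.15. Skeletal muscle markers (r -0.28) had higher means in AKO for 9 of 10 genes at RT and 10 of 10 in cold. Mammary epithelium markers (r 0.22) had lower means in AKO for 6 of 7 genes at each temperature. In both lists the array means of the genotypes overlapped, and no gene was called between genotypes. These correlations are descriptions over arrays of 4 groups, and the part of such cells in the Cbs values was not tested. Without the muscle-rich arrays AKO RT 2 and AKO Cold 3 the Cbs differences were -0.91 at RT and -1.11 in cold. Without the interferon-rich arrays flox RT 1 and flox RT 2 the RT difference was -0.99, with only flox RT 3 left in its group.

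Cth encodes cystathionine gamma-lyase, which cleaves the product of CBS into cysteine and is a second source of hydrogen sulfide. Its signal was 5.92, 6.03 and 6.16 in flox and 5.65, 5.57 and 5.44 in AKO at RT. In cold it was 6.31, 6.23 and 5.48 in flox and 5.86, 5.72 and 5.04 in AKO. The AKO arrays were all lower at RT, whereas in cold flox Cold 3 fell among the AKO values. AKO stood at 71.5% of flox at RT (-0.48, SE 0.23) and at 72.2% in cold (-0.47), and neither difference passed (adjusted p = 0.836 and 0.829). The cold value rested on single arrays. It was -0.22 without AKO Cold 3, an array rich in muscle transcripts, -0.32 without flox Cold 1 and -0.73 without flox Cold 3. Cold minus RT was -0.03 in flox and -0.01 in AKO (SE 0.23 each, adjusted p = 0.987 and 0.993).

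Gclc encodes the catalytic subunit of glutamate-cysteine ligase, the enzyme that commits cysteine to glutathione. Its signal was 7.34, 7.49 and 7.49 in flox and 7.38, 7.22 and 7.31 in AKO at RT, and 7.53, 7.52 and 7.62 in flox and 7.36, 7.42 and 7.42 in AKO in cold. It was the least variable of the enzymes, with a spread of 0.40 over all 12 arrays. The groups overlapped at RT and were apart in cold, with a difference of -0.13 at RT (adjusted p = 0.89) and of -0.16 in cold (SE 0.09 each, adjusted p = 0.879). AKO was at 91.2% and 89.6% of flox, and the 95% intervals of the differences ran from -0.34 to 0.07 at RT and from -0.36 to 0.04 in cold. The flox arrays in cold all lay above those at RT (0.12, adjusted p = 0.751).

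Ahcy encodes adenosylhomocysteinase, which hydrolyses S-adenosylhomocysteine to homocysteine. Its brighter cluster read 4.57, 4.38 and 4.34 in flox and 4.19, 4.41 and 4.03 in AKO at RT, and 4.66, 4.34 and 4.61 in flox and 4.30, 3.97 and 4.61 in AKO in cold. The genotypes overlapped at both temperatures (-0.22 at RT and -0.24 in cold, SE 0.17 each, adjusted p = 0.897 and 0.914). The cold difference was -0.08 without AKO Cold 2 and -0.40 without AKO Cold 3, and the RT difference was -0.13 without AKO RT 3. These values carry a doubt about identity. The 10 clusters nearest in identifier to the brighter one all belong to genes of chromosome 16, while RefSeq places Ahcy on chromosome 2. A second Ahcy cluster, whose 10 neighbours do lie on chromosome 2, was dim, with a mean signal of 1.53 and group means of 1.65 in flox and 1.46 in AKO at RT and of 1.61 and 1.40 in cold.

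Psat1 encodes phosphoserine aminotransferase, the second step from 3-phosphoglycerate to serine. Its signal was 6.67, 6.32 and 6.35 in flox and 6.09, 6.16 and 6.19 in AKO at RT, and 6.77, 6.83 and 6.42 in flox and 6.12, 6.10 and 6.21 in AKO in cold. Every AKO array was below every flox array at both temperatures, as for 0.537% of all genes, and the SD was 0.05 and 0.06 in AKO against 0.19 and 0.22 in flox. The AKO mean was 81.4% of flox at RT (-0.30, SE 0.13, adjusted p = 0.804) and 69.3% in cold (-0.53, SE 0.13, adjusted p = 0.229). Averaged over temperatures the difference was -0.41 (SE 0.09, 95% interval -0.61 to -0.21, adjusted p = 0.0919), which missed the threshold over all genes. This averaged difference passed with array weights (adjusted p = 0.0327) and without flox Cold 3 (0.0329), and its adjusted p ranged up to 0.375 in the other settings. The RT difference was -0.19 without flox RT 1. The difference between both temperatures was -0.23 (SE 0.18, adjusted p = 0.983).

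Phgdh encodes phosphoglycerate dehydrogenase, the first step of serine synthesis. Its signal was 6.82, 6.01 and 6.64 in flox and 6.37, 5.82 and 6.71 in AKO at RT, and 6.67, 6.68 and 6.51 in flox and 6.53, 6.47 and 6.32 in AKO in cold. A single array of each genotype was low at RT, and the SD there was 0.42 in flox and 0.45 in AKO, against 0.10 and 0.11 in cold. The difference of -0.18 at both temperatures did not pass (SE 0.23, adjusted p = 0.937 and 0.988), and at RT it was 0.06 without AKO RT 2 and -0.42 without flox RT 2, the low arrays. Phgdh and Psat1 catalyse consecutive steps, yet the separation of the genotypes that Psat1 showed array by array was not seen in Phgdh, where they overlapped at both temperatures. Whether the 2 differences were unequal was not tested.

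Shmt1 and Shmt2 encode the cytosolic and the mitochondrial serine hydroxymethyltransferase, which pass the serine carbon to folate. Shmt1 read 4.56, 4.56 and 4.87 in flox and 4.04, 4.88 and 4.64 in AKO at RT, and 4.90, 4.78 and 4.52 in flox and 4.61, 4.50 and 4.82 in AKO in cold. The genotypes overlapped throughout (-0.14 at RT, adjusted p = 0.945, and -0.09 in cold, adjusted p = 0.997), and the RT value was 0.10 without AKO RT 1, the lowest array. The cold value ranged from -0.20 without flox Cold 3 to -0.01 without flox Cold 1. Shmt2 read 7.20, 7.16 and 7.01 in flox and 6.70, 6.89 and 7.16 in AKO at RT, and 6.71, 7.10 and 7.41 in flox and 7.15, 7.39 and 7.24 in AKO in cold. It was the 1 enzyme whose AKO mean lay above flox in cold (0.19, SE 0.17) after lying below it at RT (-0.20), neither past the threshold (adjusted p = 0.963 and 0.918). Without flox Cold 1, the lowest flox array in cold, the cold difference was 0.01, and without AKO RT 1 the RT difference was -0.10. Its cold effect was 0.34 in AKO (adjusted p = 0.567) and -0.05 in flox, and the difference between these effects, 0.39 (SE 0.24, adjusted p = 0.979), did not pass.

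Mthfd2 encodes the mitochondrial methylenetetrahydrofolate dehydrogenase and cyclohydrolase, downstream of SHMT2. Its signal was 6.39, 6.95 and 6.50 in flox and 6.17, 6.54 and 6.31 in AKO at RT, and 6.04, 6.28 and 6.50 in flox and 6.10, 6.24 and 6.30 in AKO in cold. Flox RT 2 was the highest array. The genotypes overlapped at both temperatures, and cold overlapped RT in both genotypes. The genotype difference was -0.27 at RT and -0.06 in cold (SE 0.17 each, adjusted p = 0.876 and 0.997). Without flox RT 2 the RT difference was -0.10, and the cold difference turned to 0.06 without flox Cold 3. It was the enzyme with the lowest cold effect, -0.34 in flox (SE 0.17, adjusted p = 0.567) and -0.12 in AKO (adjusted p = 0.877), and neither passed. Without flox RT 2 the flox value was -0.17.

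**Figure D2:**
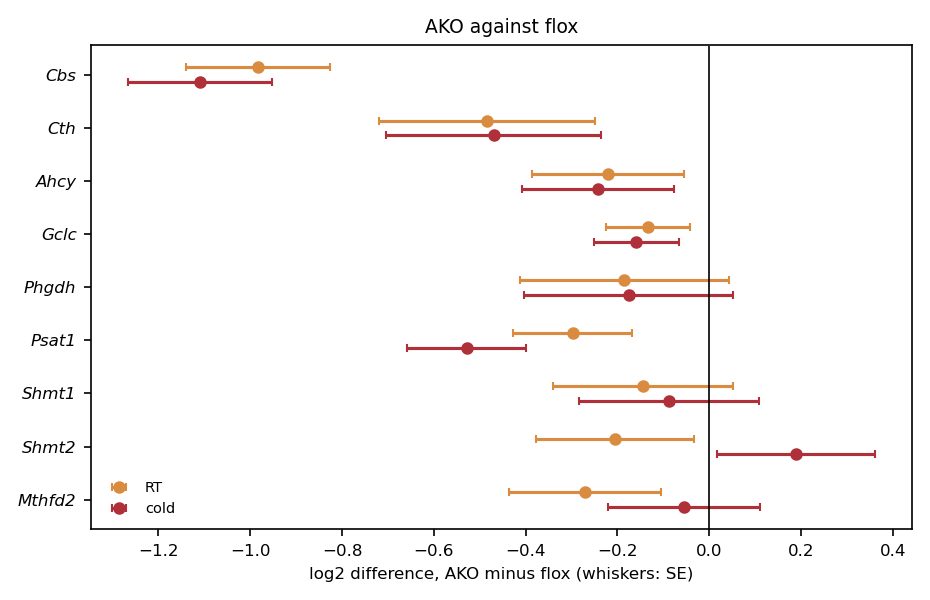
Log2 difference AKO minus flox (horizontal axis) of the 9 enzymes at RT and in cold, with the SE as whiskers (n = 3 arrays per group). All RT values lie below 0, Shmt2 lies above 0 in cold, and Cbs (-0.98 and -1.11) stands farthest from 0 as the gene chosen for that difference.

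Side by side, 8 of the 8 enzymes other than Cbs had a lower mean in AKO at RT and 7 of 8 in cold. Ahcy is counted here with the doubt about its cluster. The signs of Phgdh and Shmt1 at RT and of Mthfd2 in cold changed when 1 array was left out. The median difference of the 8 other than Cbs was -0.21 at RT and -0.17 in cold, against -0.01 and 0.00 over all genes tested, of which 51.7% and 49.4% were lower in AKO. None of these 8 passed limma at RT or in cold, where 0.144% and 0.212% of all genes were called, and 1 of 8 (Psat1) had an unadjusted p below 0.05 in each, as did 6.15% and 6.28% of all genes. The methods' two-group test, adjusted in the same way, called 0 of the 8, but only 1 of 22180 genes at either temperature, so that its count says nothing about the enzymes. Averaged over temperatures 0 of 8 passed (0.537% of all genes), with 3 at an unadjusted p below 0.05 (7.23% of all genes), which were Psat1, Cth (-0.48, adjusted p = 0.482) and Gclc (-0.15, adjusted p = 0.673). Every AKO array was below every flox array for 2 of 8 at RT (Cth and Psat1) and for 2 of 8 in cold (Gclc and Psat1), where 5.73% and 5.55% of all genes did so.

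**Figure D3:**
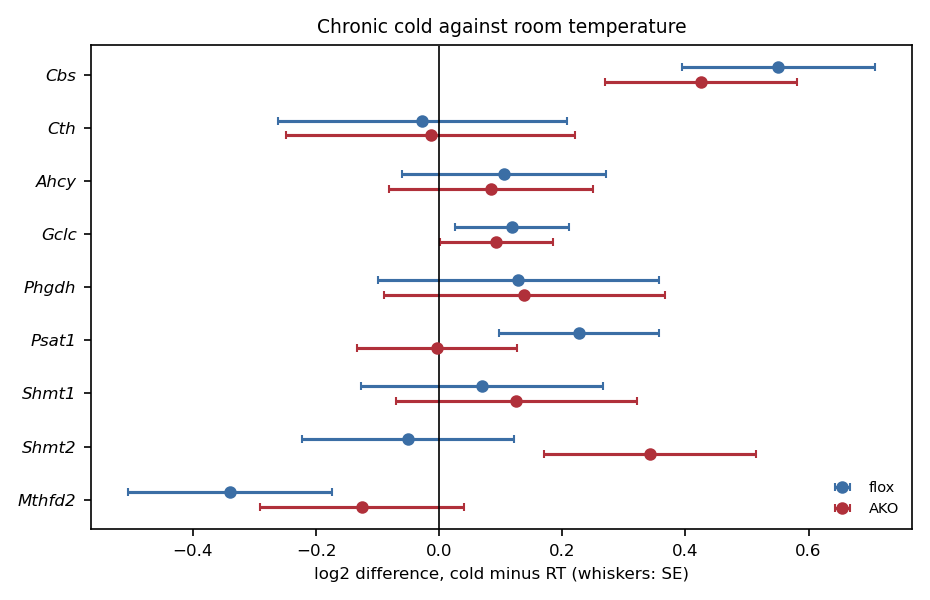
Log2 difference cold minus RT (horizontal axis) of the 9 enzymes in flox and in AKO, with the SE as whiskers (n = 3 arrays per group). Cbs has the highest value in both genotypes (0.55 and 0.43), and Mthfd2 the lowest (-0.34 and -0.12).

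Chronic cold called 0 of 9 enzymes in flox and 0 of 9 in AKO by limma, against 0.00902% and 0.464% of all genes, with 1 of 9 (Cbs) at an unadjusted p below 0.05 in each (9.44% and 9.86% of all genes). The methods' two-group test called 0 of 9, and 0 of 22180 genes in either genotype. The median cold effect of the 8 other than Cbs was 0.09 in flox and 0.09 in AKO, with 5 of 8 higher in each. The cold effects of both genotypes share no arrays, but each shares its RT or cold arrays with a genotype comparison. The difference of the cold effects was called for 0 of 8 enzymes (0.018% of all genes), and 0 of 8 had an unadjusted p below 0.05 (4.78% of all genes).

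Over the 12 arrays the enzymes with the highest Pearson's r with Cbs were Gclc (0.82) and Psat1 (0.81), followed by Ahcy (0.51), Phgdh (0.49) and Cth (0.47), while Shmt2 (0.28), Shmt1 (0.20) and Mthfd2 (0.08) were lowest. All arrays of the 4 groups enter these values, so that they mostly carry the group means. After subtracting the group means, r was 0.09 for Gclc, -0.03 for Psat1 and -0.48 for Cth, and highest for Shmt2 (0.68). Among 11860 named genes above the median signal, the 6 most like Cbs were Ffar2 (0.94), which senses short-chain fatty acids, Slc25a10 (0.94), the mitochondrial dicarboxylate carrier, Nkain1 (0.92), Akap7 (0.90), an anchoring protein of protein kinase A, Bcar3 (0.90) and Hcar1 (0.90), the lactate receptor of adipocytes. The 3 most opposite were Eif4a2 (-0.94), a translation initiation factor, Efcab2 (-0.93) and Manba (-0.91), a lysosomal mannosidase. These values describe likeness over 12 arrays and carry no test.

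The ranking used all 4 groups, so that a likeness in the group means is built into it. Slc25a10 differed by -1.05 at RT and -1.05 in cold between genotypes and by 0.55 in flox and 0.55 in AKO between temperatures, close to the -0.98, -1.11, 0.55 and 0.43 of Cbs. Ffar2 had a wider genotype difference (-2.37 and -1.94) with cold effects of 0.16 in flox and 0.58 in AKO. Hcar1 combined genotype differences of -0.47 and -0.68 with cold effects of 0.66 and 0.45. The cold effects in flox and AKO were smaller in Nkain1 (0.15 and 0.22), Akap7 (0.13 and 0.13) and Bcar3 (0.19 and 0.13). Eif4a2 ran the other way, with 0.45 and 0.49 between genotypes and -0.24 and -0.20 between temperatures. After subtracting group means, r with Cbs was 0.72 for Ffar2, 0.66 for Hcar1, 0.64 for Nkain1 and 0.45 for Akap7. It was 0.37 for Bcar3 and 0.22 for Slc25a10. Of the opposite genes, Eif4a2 was at -0.33, Efcab2 at -0.66 and Manba at -0.74.

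**Figure D4:**
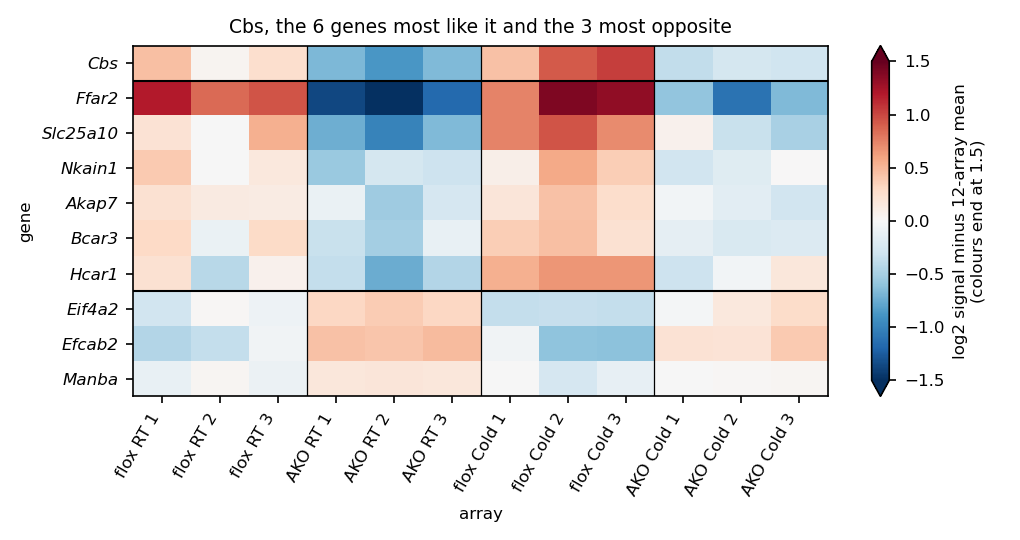
Log2 signal minus the mean of the 12 arrays (colour, which ends at 1.5 in either direction) of Cbs, of the 6 genes with the highest and of the 3 with the lowest Pearson's r with it, by array (horizontal axis). For Cbs all AKO arrays are blue, deepest in AKO RT 2, and flox arrays are red except the near-white flox RT 2, while Eif4a2 and Efcab2 are red in AKO at RT and Manba varies least.

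Around these enzymes, 9 lists of pathway genes held 100 further measured genes. Averaged over temperatures, 3 of these 100 were lower in AKO and 1 was higher, where 0.537% of all genes were called, and 51 of 100 had a lower mean. At RT 0 of 100 passed limma, where 0.144% of all genes were called, and 18 had an unadjusted p below 0.05, against 6.15% of all genes. In cold 2 of 100 were lower and 1 was higher, where 0.212% of all genes were called. The lists share some genes, and they were drawn up with earlier results of these data known.

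Gsta3, a glutathione S-transferase of the antioxidant (NRF2) list, read 5.83, 5.44 and 6.29 in flox and 4.85, 4.58 and 5.03 in AKO at RT, and 7.19, 7.06 and 6.69 in flox and 5.87, 5.69 and 5.48 in AKO in cold. AKO arrays were below flox arrays at both temperatures, and cold arrays above RT arrays in both genotypes. The averaged genotype difference was -1.17 (SE 0.15, adjusted p = 0.00362) and the averaged cold effect 1.00 (adjusted p = 0.00711), so that Gsta3 moved in the directions of Cbs in both factors. It passed in cold (-1.30, adjusted p = 0.0302) and not at RT (-1.03, adjusted p = 0.159). Leaving out 1 array ended the cold call in 7 of 12 fits (adjusted p up to 0.149), as did the replicate block (0.0573), the arrays compared alone (0.0532) and the fit without the 2 muscle-rich arrays (0.150). No other NRF2 gene was called, and Hmox1, heme oxygenase, differed by -0.43 (adjusted p = 0.693) with its highest values in flox RT 1 and flox RT 2 (8.15 and 8.54), the 2 arrays rich in interferon transcripts.

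Folh1, folate hydrolase, which trims glutamates from folate, read 6.10, 5.61 and 6.05 in flox and 5.28, 4.90 and 5.37 in AKO at RT, and 6.07, 5.60 and 5.24 in flox and 4.30, 3.87 and 4.35 in AKO in cold. The averaged difference was -1.10 (SE 0.16, adjusted p = 0.00688), and it passed in cold (-1.46, adjusted p = 0.0185). Without the 2 interferon-rich arrays, with only flox RT 3 left in its group, the averaged difference was -1.16. That fit is no check of whether the averaged call held. The cold call was lost without any 1 of flox Cold 1, flox Cold 2 or the 3 AKO arrays in cold (adjusted p up to 0.103), with only the arrays compared (0.112) and without the 2 muscle-rich arrays (0.0696). No other folate gene passed. Aldh1l1, the cytosolic 10-formyltetrahydrofolate dehydrogenase, missed the threshold (-0.53, adjusted p = 0.0539), and Slc46a1, a proton-coupled folate carrier, had AKO means above flox. Folh1 was thus the only 1 of 17 folate genes other than Mthfd2 called in the averaged comparison.

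Oplah, 5-oxoprolinase, which returns oxoproline from glutathione turnover to glutamate, was the gene that rose. It read 7.43, 6.76 and 7.35 in flox and 7.97, 7.78 and 7.98 in AKO at RT, and 7.57, 7.70 and 7.29 in flox and 8.65, 8.52 and 8.40 in AKO in cold. The averaged difference was 0.87 (SE 0.12, adjusted p = 0.00652). It also passed in cold alone (1.00, adjusted p = 0.0445), where 10 of the 12 fits that left out an array lost the call (adjusted p up to 0.177). The cold call was also lost with the replicate block (0.0678), with only the arrays compared (0.0764) and without the 2 muscle-rich arrays (0.138). It was the only 1 of 13 glutathione genes other than Gclc to be called. Gss, glutathione synthetase, the step after glutamate-cysteine ligase, had a difference of 0.34 that did not pass (adjusted p = 0.235).

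Prps1, phosphoribosyl pyrophosphate synthetase, supplies the sugar of purine synthesis, a pathway that uses one-carbon units. It read 7.81, 7.49 and 7.25 in flox and 6.73, 6.63 and 7.23 in AKO at RT, and 7.30, 7.66 and 7.37 in flox and 6.47, 6.36 and 6.66 in AKO in cold. Its averaged difference was -0.80 (SE 0.13, adjusted p = 0.0157), lost without AKO RT 1 or AKO Cold 2 (adjusted p up to 0.0535), without the 2 muscle-rich arrays (0.0669) and without the 2 interferon-rich arrays (0.180). The other 8 measured purine genes had no call, and Gart and Atic, which consume formyl folate, had AKO arrays below flox arrays at RT (-0.32 and -0.25) and overlapping arrays in cold (-0.03 and 0.02).

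In the cysteine branch, 10 genes other than Cbs and Cth were measured, and none passed in a genotype comparison. Tst, the sulfur transferase rhodanese, had AKO arrays below flox arrays at both temperatures (-0.73 and -0.86) and an averaged difference of -0.79 (SE 0.16, adjusted p = 0.0569). Csad, which makes hypotaurine on the way to taurine, differed by -0.47 (adjusted p = 0.0607). Gldc of the glycine cleavage system differed by -0.53 (adjusted p = 0.0779). Pemt, which uses S-adenosylmethionine to make phosphatidylcholine, was at 0.39 (adjusted p = 0.0875), with AKO arrays above flox arrays at both temperatures. None of these passed, and their values are given as measured.

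Cold averaged over genotypes called 5 of the 100 further genes, all higher, where 1.38% of all genes were called higher. Besides Gsta3 these were Asns, asparagine synthetase and a target of the stress factor ATF4 (0.60, adjusted p = 0.0118), Cdo1, cysteine dioxygenase at the head of taurine synthesis (0.38, adjusted p = 0.0342), Sfxn1, the mitochondrial serine carrier (0.45, adjusted p = 0.0354), and Dld, a subunit shared by the glycine cleavage system and the oxoacid dehydrogenases (0.54, adjusted p = 0.0415). Asns lay at 7.23 to 7.46 in flox and 7.17 to 7.62 in AKO at RT, and at 7.84 to 8.15 and 7.88 to 8.08 in cold, with cold arrays above RT arrays in both genotypes and no genotype difference past the threshold. Gsta3 and Asns kept their calls in each of the 12 fits without 1 array. Cdo1, Dld and Sfxn1 lost theirs in 10, 10 and 9 of these fits, with adjusted p up to 0.0899, 0.101 and 0.0911. These 3 calls were also lost with the replicate block (0.0609, 0.0791 and 0.0592) and without the muscle-rich arrays (0.128, 0.180 and 0.124). Without the interferon-rich arrays only flox RT 3 was left in its group, so that fit is no check of whether the 5 calls held. The differences there were 0.78 for Gsta3, 0.56 for Asns, 0.30 for Cdo1, 0.39 for Dld and 0.40 for Sfxn1. The 10 other measured genes of the ATF4 list had no call.

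**Figure D5:**
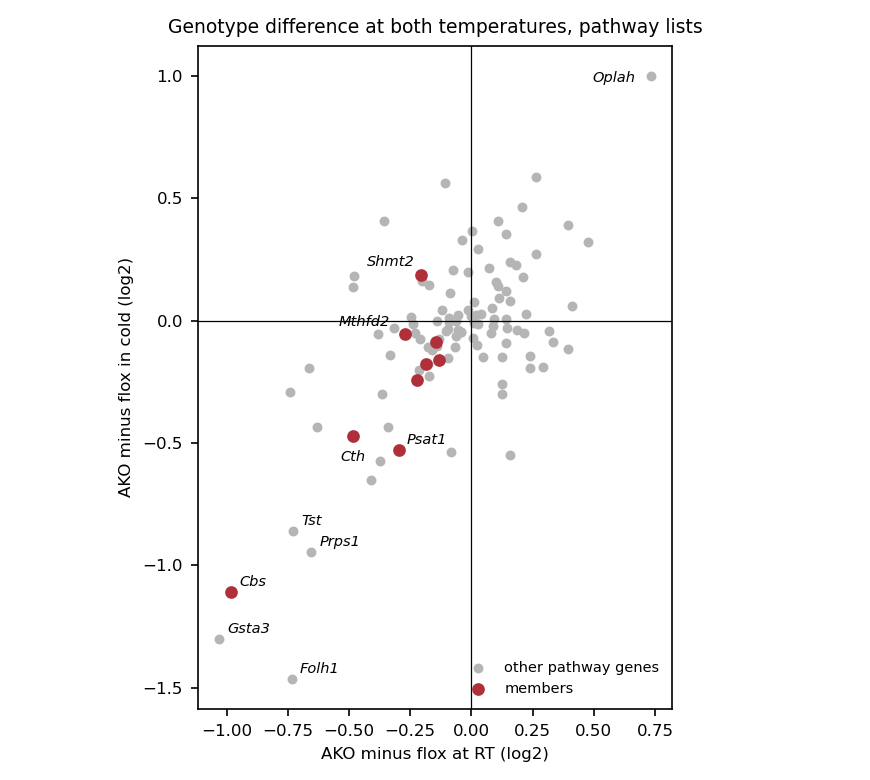
Log2 difference AKO minus flox at RT (horizontal axis) against the same difference in cold (vertical axis) for the 9 enzymes and 100 further pathway genes, from separate arrays at each temperature. Cbs lies at the lower left beside Gsta3 and Folh1, Oplah at the upper right, and most genes lie near 0 on both axes.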

How the data were processed

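Each array took 400 ng of RNA, an equal mix where it held 2 mice rather than 1, for labelling and Affymetrix gene arrays. The authors summarised the probes by RMA (R 3.1.1 per the submitters' processing notes) and deposited log2 signals for 41345 transcript clusters, without detection calls. Of these, 23521 carried 1 gene symbol, and 22180 genes remained after keeping the brightest cluster of each. Array signals were taken as deposited and fitted in limma 3.58.1 (R 4.3.3) with 1 mean per group over all 12 arrays and empirical Bayes moderation. Tests were two-sided, with Benjamini-Hochberg adjustment over all genes and a threshold of 0.05. The fit was tested on simulated data for AKO against flox in cold over 22180 genes, where 19.6% of changes of 0.5 on the log2 scale and 78% of changes of 1 were recovered. The members and lists were chosen with earlier results of these data known. Named pathway genes were those called in any comparison and up to 3 more per list with the smallest p in the averaged genotype comparison. Genes most like Cbs were ranked by Pearson's r. Alternatives covered normalization, filters, clusters, weights, blocks, Student's t test and left-out arrays. Mat2a was not analysed here.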

Additional observations from a re-analysis of the deposited data

How the results depend on the processing

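None of the values reversed a call. Averaged over temperatures, 0 of the 8 enzymes other than Cbs passed between genotypes, and 1 (Psat1) with array weights or, among the fits leaving out 1 array, between 0 and 1. Averaged over genotypes, 1 enzyme (Cbs) passed between cold and RT. The count was 0 with all clusters tested, with the clusters of a gene averaged, with trend and robust eBayes, with the replicate block or without the muscle-rich arrays. The fit without the interferon-rich arrays, with only flox RT 3 left in its group, is left out of this list. Leaving out 1 array gave 0 to 1 there. Of 1530 values of enzymes and pathway genes, 1478 kept their direction and 52 changed sign, none of them called. Over all genes the counts called ranged from 1 to 52 at RT (32 as reported), 1 to 68 in cold (47), 0 to 104 for cold in flox (2), 0 to 212 for cold in AKO (103), 4 to 13 for the difference of cold effects (4), 52 to 154 for averaged genotype (119) and 71 to 592 for averaged cold (407). The deviations of same-numbered arrays from their group means had an r of -0.237 to 0.283 over 18 pairs, 4 over 0.1. The highest was that of AKO RT 1 with AKO Cold 1. Differently numbered arrays were not set beside them, so that whether the numbers pair the arrays was not tested. With the replicate block the averaged counts were 110 and 328, and among the 9 enzymes it changed the call of Cbs alone. Among the pathway genes it ended the calls of Gsta3 and Oplah in cold (0.0573 and 0.0678) and of Cdo1, Dld and Sfxn1 in averaged cold (0.0609, 0.0791 and 0.0592). With 3 arrays a group the median SE of a pairwise difference was 0.151, which limits what small changes can be seen.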
